A study of Mus musculus with 4 samples.

Results

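The genes examined here were 34 markers by which Kupffer cells, macrophages and monocytes are told apart, measured in cells labelled as mouse Kupffer cells. They were taken by gene symbol from tables of 56004 gene rows, each symbol matched exactly 1 row, and all 34 were found. The RNA of the cells was sequenced 48 h after exosomes, small vesicles shed by cells, had been added. The exosomes of the PRL-3 group came from the MC38 mouse colon carcinoma line named MC38-PRL-3 (PRL-3 is a phosphatase), and those of the VT group came from the control line named MC38-VT, whose name the labels do not expand. There were 2 libraries per group and 4 in all, called PRL-3 cultures and VT cultures here. All of the cells received tumour exosomes, so none was untreated. The growth protocol names 10 ug of exosomes beside the VT line. The labels do not say how the Kupffer cells were obtained or purified, give no strain, sex or age of mice, and call the libraries of a group biological replicates without saying what separates them. The p values below therefore rest on the spread between these libraries, which may be technical. For each gene this spread was estimated partly from that of the other genes.

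Kupffer cells are the macrophages that live in the sinusoids of the liver. They are seeded before birth and are marked by receptors such as VSIG4, TIM4 and CLEC4F that clear particles from the blood, and they lose part of this program in culture. Monocytes that enter the liver from the blood carry Ly6C and versican, and can take on Kupffer cell markers once they settle there. Genes such as Cd68, Adgre1 and Tyrobp are shared by most macrophages and do not separate one kind from another. In bulk RNA, fewer cells of a type and less RNA per cell cannot be told apart.

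The values were FPKM, in which the fragments of a transcript are divided by its length and by the depth of the library. Such values allow genes of different length to be set side by side within a library. Low values fell on steps that fit whole fragments, which put the depth in units of 1e6 fragments at 17.2 and 18.4 in PRL-3 cultures and at 18.0 and 18.4 in VT cultures. The fragments given for single genes below are approximations from these depths and from the longest annotated coding transcript, and are not counts. PRL-3 replicate 1 stood apart from the others, with an SD of the log2 ratio of 0.402 to 0.412 in the pairs that held it and 0.313 to 0.366 in the remaining pairs.

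The markers fell into 3 sets by level. An FPKM of at least 1 in at least 2 libraries was reached by 11 of the 34, and these could be tested. Another 14 were above 0 in at least 1 library but did not reach that minimum, and 9 were listed at 0 in all 4 libraries. Of the 11, 6 were general macrophage genes, and 2 were among the 8 markers counted as Kupffer cell markers. None of the 3 C1q genes and none of the 3 genes of alternative activation was among them. All 18 housekeeping genes looked up were above 0 in every library, at 19.1 FPKM or more, so none of these was at 0.

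**Figure D1:**
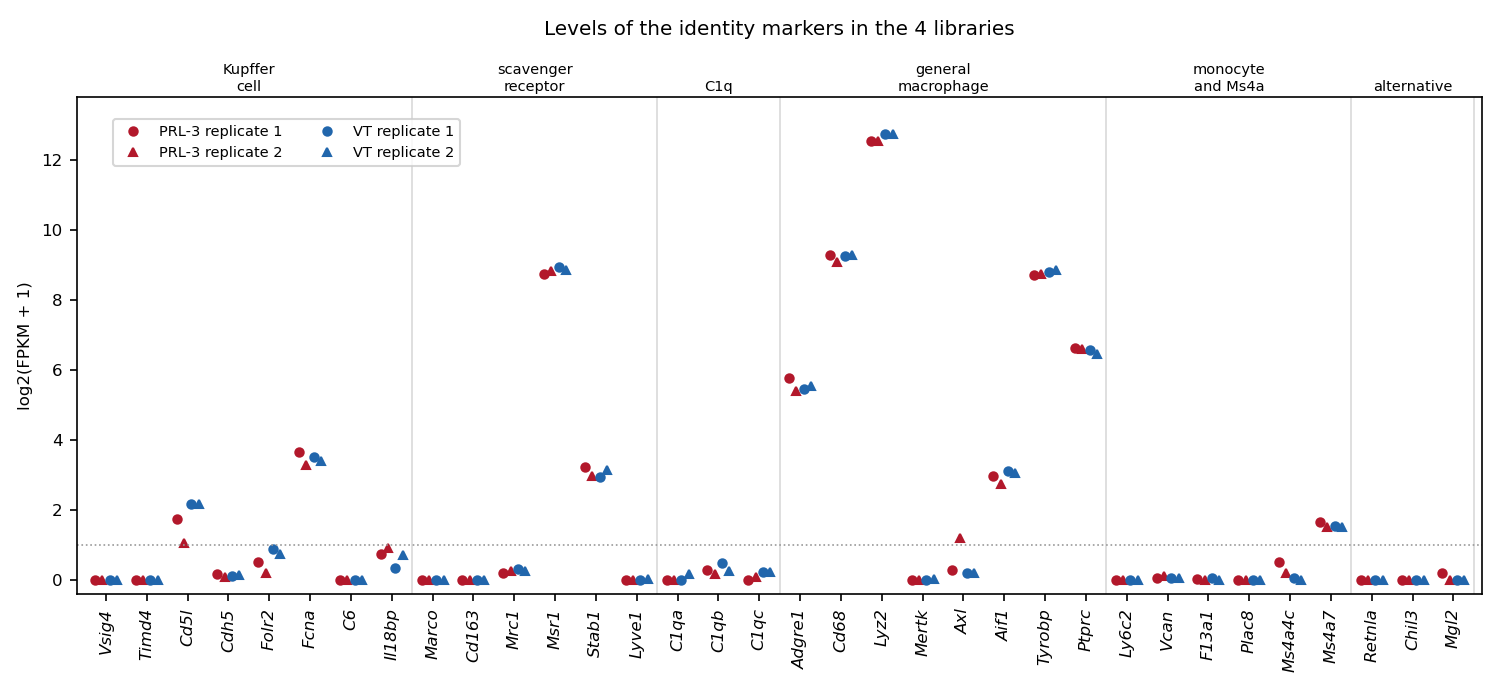
Level of each of the 34 markers on the log2(FPKM + 1) scale in the 2 PRL-3 and 2 VT libraries, grouped by role, with a dotted line at an FPKM of 1. Lyz2, Cd68, Msr1 and Tyrobp stand high in all 4 libraries, and most Kupffer cell, C1q, monocyte and alternative activation genes lie at or near 0.

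Lyz2, which encodes the lysozyme of macrophages and neutrophils, was the most abundant of the markers. It stood at 5916 and 5988 FPKM in PRL-3 cultures, against 6822 and 6831 FPKM in VT cultures, and ranked 9 among all rows by mean level. It alone made up 78.2% and 79.1% of the summed FPKM of the 34 markers in PRL-3 cultures, against 79.9% and 80.0% in VT cultures. Lyz2 (chromosome 10, 117277331 to 117282321, minus strand, GRCm38) has a close copy, Lyz1, a lysozyme of Paneth cells, on the same chromosome. Over their 447 coding bases the pair differ at 22, an identity of 95.1%. The first 90 coding bases are shown from GENCODE transcripts because they show how far reads of the pair can be separated, with the 7 differing bases in capitals.
Lyz2: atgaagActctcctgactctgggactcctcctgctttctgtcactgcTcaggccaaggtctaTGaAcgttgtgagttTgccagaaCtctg
Lyz1: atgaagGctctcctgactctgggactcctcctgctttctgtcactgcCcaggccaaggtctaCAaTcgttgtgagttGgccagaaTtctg
Of all windows of 50 bases in the coding transcripts of Lyz2, 15.4% also occurred in Lyz1. Lyz1 was listed at 125 and 92.5 FPKM in PRL-3 cultures, against 124 and 125 FPKM in VT cultures, and Lyz2 exceeded it 47.1 to 64.7 times. Reads that match both genes equally could have been credited to either.

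The other general macrophage genes ranged widely. Cd68, a lysosomal membrane glycoprotein (chromosome 11, 69664213 to 69666153, minus strand), was at 622 and 538 FPKM in PRL-3 cultures, against 614 and 625 FPKM in VT cultures. Tyrobp, the DAP12 adaptor that carries signals of activating receptors (chromosome 7, 30413760 to 30417585, plus strand), stood at 415 and 429 FPKM in PRL-3 cultures and at 448 and 458 FPKM in VT cultures. Both genes were above 98% of all 12193 tested genes, at 98.6% for Cd68 and 98.1% for Tyrobp. Ptprc, the leukocyte phosphatase CD45 (chromosome 1, 138062861 to 138175708, minus strand), was at 96.7 and 96.5 FPKM in PRL-3 cultures and at 93.7 and 86.0 FPKM in VT cultures. Adgre1, the adhesion receptor F4/80 (chromosome 17, 57358691 to 57483527, plus strand), stood at 53.8 and 40.7 FPKM in PRL-3 cultures and at 43.0 and 45.6 FPKM in VT cultures. Here the PRL-3 libraries lay on both sides of the VT libraries. Aif1, the actin-binding protein IBA1 (chromosome 17, 35170991 to 35176068, minus strand), was much lower, at 6.87 and 5.71 FPKM in PRL-3 cultures, against 7.66 and 7.22 FPKM in VT cultures. That level was above 31.5% of tested genes.

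The receptor kinases for apoptotic cells, also counted among the general macrophage genes, were barely detected. Mertk had a value of 0 in PRL-3 cultures and in VT replicate 1, and stood at 0.02 FPKM in VT replicate 2, or about 1.5 fragments. Axl was at 0.21 and 1.29 FPKM in PRL-3 cultures, against 0.14 and 0.14 FPKM in VT cultures. Its value in PRL-3 replicate 2 corresponded to about 95.8 fragments, against 10.2 to 14.5 in the other 3 libraries, so that library stood alone. Most of the difference between the groups thus came from 1 library, and Axl did not enter the test.

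**Figure D2:**
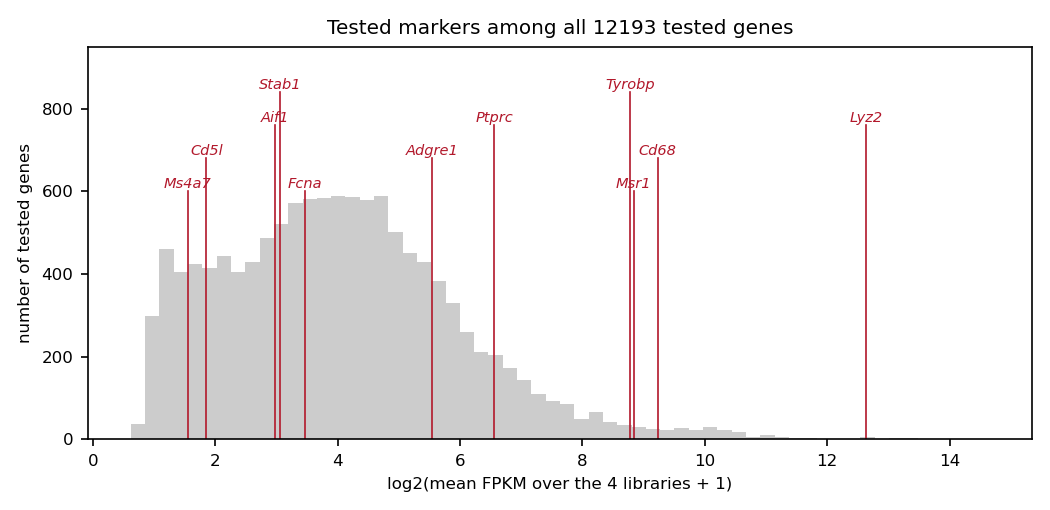
Number of tested genes by mean level over the 4 libraries, on the log2(mean FPKM + 1) scale, with the 11 tested markers as red lines. Ms4a7 and Cd5l stand at the low end, above 9.8% and 14.2% of the 12193 tested genes, and Lyz2 stands above 99.9% of them.

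Among the Kupffer cell markers, those that define the resident cell most closely were listed at 0. Vsig4, the complement receptor CRIg (chromosome X, 96247203 to 96293438, minus strand), Timd4, a receptor for phosphatidylserine (chromosome 11, 46810800 to 46844332, plus strand), and C6, a component of the terminal complement complex, were listed at 0 in all 4 libraries. At these depths, 3 fragments would have given a Vsig4 value of 0.134 to 0.146 FPKM, a Timd4 value of 0.083 to 0.090 FPKM and a C6 value of 0.061 to 0.066 FPKM, which bounds what a listed 0 allows for counting error only. The scavenger receptors Marco, which binds bacteria, and Cd163, which takes up haptoglobin-hemoglobin complexes, were also listed at 0 throughout, with corresponding limits of 0.096 to 0.103 and 0.039 to 0.041 FPKM. Over all 9 genes at 0 these limits were 0.039 to 0.484 FPKM, the highest for Retnla, whose transcript is short. Of the rows in the tables, 645 carried no Ensembl gene identifier, and whether reads of a marker were credited to such a row was not tested. As far as these defining markers tell, the values go against the labelled cell type, while genes of macrophages in general were abundant. Fcna, Cd5l and some further genes linked with Kupffer cells were present, as given below.

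The promoters of a marker at a high level and of one listed at 0 are shown for comparison, since PU.1, the transcription factor on which macrophage development depends, binds purine-rich sites with the core GAGGAA. Each sequence runs from 250 bases before to 50 after the RefSeq start of the gene, with matches to GAGGAA on either strand in capitals. The Cd68 promoter is chr11:69666121-69666420 and the Vsig4 promoter is chrX:96293389-96293688, both on the minus strand of GRCm38.p6.
Cd68: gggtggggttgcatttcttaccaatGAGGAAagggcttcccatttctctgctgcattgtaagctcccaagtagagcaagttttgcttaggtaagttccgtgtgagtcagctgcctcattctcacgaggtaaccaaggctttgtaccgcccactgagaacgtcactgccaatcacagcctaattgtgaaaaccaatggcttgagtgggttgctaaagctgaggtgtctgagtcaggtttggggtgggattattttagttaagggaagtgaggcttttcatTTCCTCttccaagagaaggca
Vsig4: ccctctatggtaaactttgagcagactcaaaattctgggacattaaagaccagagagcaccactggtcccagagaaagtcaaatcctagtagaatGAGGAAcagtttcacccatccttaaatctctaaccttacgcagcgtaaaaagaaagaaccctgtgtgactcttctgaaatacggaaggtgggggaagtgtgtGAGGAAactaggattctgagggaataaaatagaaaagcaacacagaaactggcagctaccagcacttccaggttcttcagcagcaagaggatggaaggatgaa
Each of the pair held 2 matches. Of the 28 markers with a promoter in the RefSeq table, 19 held at least 1 match in any of their listed promoters, and 28.3% of all 32851 single promoters of this length did. The markers were counted by gene and the rest by single promoter, so these shares cannot be set against each other. Matches were present for 7 of the 8 tested markers with a promoter, Lyz2 being the exception, and for 5 of the 9 markers listed at 0. A match is a description of these letters and not a bound site. Only these exact letters were searched, so the lack of a match, as for Lyz2, does not show that a site is absent.

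A few Kupffer cell markers were present. Fcna, which encodes the lectin ficolin A (chromosome 2, 25624666 to 25628030, minus strand), was at 11.7 and 8.69 FPKM in PRL-3 cultures, against 10.3 and 9.48 FPKM in VT cultures, and the groups overlapped. These values corresponded to about 183 to 228 fragments per library. An antisense gene, Fcnaos, shares 90 of its exonic bases, and whether the libraries kept strand is not stated. Cd5l, a secreted scavenger protein that tissue macrophages make (chromosome 3, 87357881 to 87371073, plus strand), stood at 2.36 and 1.05 FPKM in PRL-3 cultures, against 3.52 and 3.51 FPKM in VT cultures. About 72.9 and 34.9 fragments lay behind the PRL-3 values, against 115 and 117 behind the VT values. The PRL-3 values were both under the VT values, and they differed from each other by more than the VT libraries did.

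The remaining Kupffer cell markers stayed under 1 FPKM. Folr2, the folate receptor beta, was at 0.43 and 0.15 FPKM in PRL-3 cultures and at 0.83 and 0.67 FPKM in VT cultures, or at most 14.7 fragments. The antisense gene Gm10602 overlaps 63.1% of its exonic bases, so the reads of Folr2 cannot be assigned with certainty without strand. Il18bp, the soluble inhibitor of interleukin-18, was at 0.65 and 0.86 FPKM in PRL-3 cultures, against 0.27 and 0.62 FPKM in VT cultures. Cdh5, the cadherin of endothelial cells that Kupffer cells also carry, was at 0.11 and 0.06 FPKM in PRL-3 cultures and at 0.07 and 0.09 FPKM in VT cultures, on 4.2 to 7.1 fragments. None of these 3 genes entered the test.

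The scavenger receptors were split in the same way. Msr1, the class A scavenger receptor for modified lipoproteins (chromosome 8, 39581685 to 39642673, minus strand), was abundant, at 430.0 and 450.2 FPKM in PRL-3 cultures, against 489 and 458 FPKM in VT cultures, and was above 98.2% of tested genes. Stab1, an endocytic receptor of macrophages and sinusoidal endothelium (chromosome 14, 31139013 to 31168641, minus strand), was at 8.30 and 6.82 FPKM in PRL-3 cultures and at 6.59 and 7.75 FPKM in VT cultures, which overlapped. Mrc1, the mannose receptor, was at 0.15 and 0.18 FPKM in PRL-3 cultures and at 0.24 and 0.18 FPKM in VT cultures, and Lyve1, a hyaluronan receptor, reached only 0.02 FPKM in VT replicate 2 and was at 0 elsewhere. Msr1 thus stood high in libraries where Marco, Cd163 and Lyve1 were at or near 0.

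The 3 genes of C1q, the recognition protein of the classical complement pathway, lie side by side on chromosome 4 and are made together by most tissue macrophages. C1qb was at 0.20 and 0.13 FPKM in PRL-3 cultures, against 0.38 and 0.19 FPKM in VT cultures. C1qc was at 0 and 0.06 FPKM in PRL-3 cultures and at 0.17 FPKM in both VT libraries, and C1qa was above 0 only in VT replicate 2, at 0.13 FPKM. No C1q value in any library rested on more than about 5.9 fragments, so differences between the groups were not detectable at this depth.

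**Figure D3:**
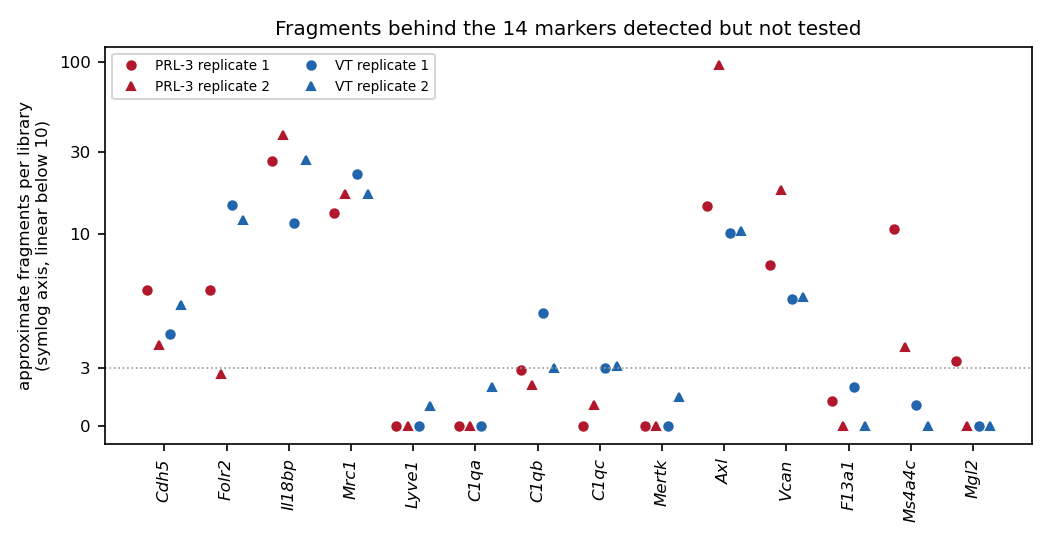
Approximate number of fragments per library behind the 14 markers that were above 0 in at least 1 library but not tested, with a dotted line at 3 fragments and an axis that is linear below 10. Axl in PRL-3 replicate 2, at about 95.8 fragments, is the highest, and the C1q genes stay at or below 5.9.

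Of the 6 monocyte markers 5 stayed under 1 FPKM in every library, while other genes of monocytes were well above it. Ly6c2, the antigen of classical monocytes, and Plac8 were listed at 0 in all 4 libraries. Vcan, the proteoglycan versican, was at 0.04 and 0.08 FPKM in PRL-3 cultures and at 0.03 FPKM in both VT libraries, and F13a1, the coagulation factor XIII A subunit, was at 0.03 FPKM or less in every library. Ms4a4c, a membrane protein of monocytes, was at 0.42 and 0.15 FPKM in PRL-3 cultures, against 0.04 and 0 FPKM in VT cultures, on about 10.7 and 4.1 fragments against 1.1 and 0. Ms4a7, a related gene of differentiated macrophages (chromosome 19, 11321039 to 11336146, minus strand), varied little, at 2.13 and 1.83 FPKM in PRL-3 cultures and at 1.90 and 1.86 FPKM in VT cultures. Of the genes that interleukin-4 induces in mouse macrophages, Retnla and Chil3 were listed at 0 throughout, and the lectin gene Mgl2 was at 0.14 FPKM in PRL-3 replicate 1, or about 3.4 fragments, and at 0 in the other 3 libraries. Ly6c2, Chil3 and Mgl2 share 31.2%, 28.5% and 14.5% of their windows of 50 bases with other genes, mainly Ly6c1, Chil4 and Clec10a. Ly6c1 and Chil4 were also listed at 0. Outside the 34 markers, Ccr2, the chemokine receptor that brings classical monocytes into tissue, was at 10.8 and 10.4 FPKM in PRL-3 cultures, against 9.45 and 9.38 FPKM in VT cultures, on 937.1 to 1052.3 fragments. Cx3cr1, the fractalkine receptor of monocytes and many tissue macrophages, was at 3.73 and 10.9 FPKM in PRL-3 cultures and at 8.54 and 12.03 FPKM in VT cultures, and these overlapped. The rows of both genes also carried the identifier of an assembled locus. Low Ly6c2 therefore stood beside measurable Ccr2 in all 4 libraries.

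The markers were next compared between the groups. Of the 11 tested markers, limma called 0 higher and 0 lower at an adjusted p under 0.05. Among all 12193 tested genes 0.0246% were called in each direction. At an unadjusted p under 0.05 there was 1 of the 11, Cd5l, which was lower, where 5.66% of all tested genes were higher and 3.85% lower at that level. The median log2 difference (PRL-3 cultures minus VT cultures, with 1 added to each FPKM before taking logs) was -0.10 over the tested markers and 0.02 over all tested genes. A mean above that of the VT libraries was found for 5 of the 11 and a mean below it for 6.

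Cd5l had the greatest difference of the tested markers. Its mean was 1.71 ± 0.93 FPKM in PRL-3 cultures and 3.52 ± 0.007 FPKM in VT cultures (SD, n = 2 each), which differ by -0.78 ± 0.26 (standard error) on the scale of log2(FPKM + 1) (limma adjusted p = 0.49, 95% interval -1.41 to -0.15). The ratio of the means was 0.485. At levels this low the size depended on the pseudocount, with -1.10 when 0.1 was added and -0.35 when 5 was added. The interval is not adjusted for the number of genes. Without PRL-3 replicate 2, the library with the lower value, the difference was -0.43, and without PRL-3 replicate 1 it was -1.14. The difference did not pass in either case. 

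Levels of some stellate cell and fibroblast markers were higher in PRL-3 cultures, although none was called. These genes were chosen after their values were seen. Their summed level over 10 genes was 13.5 and 10.7 FPKM in PRL-3 cultures, against 7.12 and 6.55 FPKM in VT cultures, and much of it was Dcn, the proteoglycan decorin, whose groups overlapped (4.32 to 6.63 FPKM). Both PRL-3 values were above both VT values for 6 of the 10. Among all tested genes 24.3% had that order. Of the 6, 4 were not tested, and the genes were picked with their values known. These shares therefore cannot be set against each other. The fibrillar collagen gene Col1a1 was at 0.68 and 0.52 FPKM in PRL-3 cultures, against 0.01 and 0.03 FPKM in VT cultures. Its partner Col1a2 was at 0.81 and 0.47 FPKM and Col3a1 at 0.34 and 0.86 FPKM in PRL-3 cultures, and both were listed at 0 in VT cultures. Pdgfrb, a receptor of mesenchymal cells, was at 0.35 and 0.18 FPKM in PRL-3 cultures, against 0.03 and 0.02 FPKM in VT cultures. These 4 genes were under 1 FPKM and were not tested. Of the 3 that were, limma called 0. At an unadjusted p under 0.05, where 5.66% of all tested genes were higher, there were 2 genes of contractile cells, both higher. Acta2, smooth muscle actin, had a log2 difference of 0.77 (standard error 0.20, limma adjusted p = 0.45), and Tagln, transgelin, one of 0.78 (0.23, limma adjusted p = 0.47). Acta2 and Tagln reached an FPKM of 1 only in PRL-3 cultures, so they entered the test through the group where they were higher. Lrat, which defines stellate cells, was listed at 0 in all 4 libraries. The part of such cells in the Cd5l value was not tested.

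For Lyz2 the means were 5952 ± 51.2 FPKM in PRL-3 cultures and 6827 ± 6.32 FPKM in VT cultures (SD, n = 2 each), a ratio of 0.872. The gap between the groups was wider than that within them, with a log2 difference of -0.20 and a standard error of 0.12, but it did not pass (limma adjusted p = 0.64, 95% interval -0.49 to 0.09). That standard error draws on the spread of all tested genes and not only on that of Lyz2. The log2 difference kept its sign in each of the 13 alternative settings, at -0.22 to -0.14. The summed level of the 34 markers, most of it Lyz2, was 7567 and 7569.7 FPKM in PRL-3 cultures, against 8542 and 8536 FPKM in VT cultures. Without Lyz2 it was 1651 and 1581 FPKM in PRL-3 cultures, against 1719.94 and 1705 FPKM in VT cultures.

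Both PRL-3 values were lower than both VT values for 5 of the 11 tested markers, Cd5l, Lyz2, Msr1, Tyrobp and Aif1, where 18% of all tested genes had that order. They were higher for 1, Ptprc, where 24.3% of all tested genes did. The differences were small for those other than Cd5l. Aif1 had a log2 difference of -0.22 (standard error 0.14), Msr1 of -0.10 (0.11) and Tyrobp of -0.10 (0.10), and Ptprc of 0.10 (0.10), with limma adjusted p values of 0.66 to 0.79. The 95% interval of Tyrobp was -0.36 to 0.15 and that of Ptprc -0.14 to 0.35. A change of 1 on the log2 scale thus lay outside the unadjusted interval of both genes.

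For the remaining 5 markers, Fcna, Stab1, Adgre1, Cd68 and Ms4a7, the groups overlapped. Their log2 differences ran between -0.10 for Cd68 and 0.08 for Adgre1, with limma adjusted p values of 0.83 to 0.97, and each changed sign when 1 of the libraries was left out. When PRL-3 replicate 1 was left out, Adgre1 was at -0.12 and Fcna at -0.17 in place of 0.08 and 0.03. No direction can be given for these 5. The 95% intervals were widest for Cd5l and then for Ms4a7 (-0.37 to 0.47), a gene on about 45.4 to 49.0 fragments per library.

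**Figure D4:**
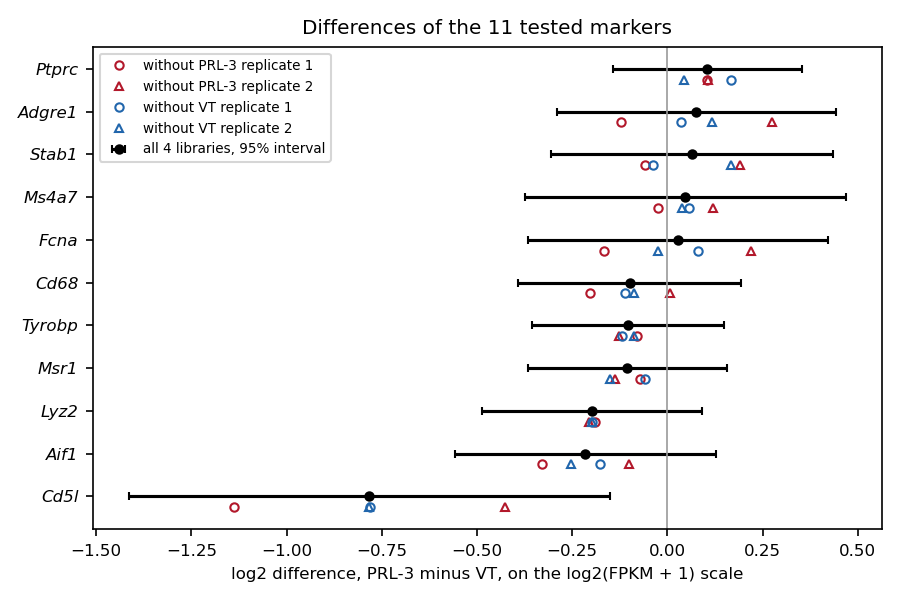
Log2 difference (PRL-3 minus VT, 1 added to each FPKM) of the 11 tested markers, with 95% limma intervals in black and the values without each library as open symbols. Only the interval of Cd5l, from -1.41 to -0.15, leaves out 0, before adjustment for the number of genes.

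The wider set of genes of these cells gave the same split of levels. Of 19 further genes linked with Kupffer cells, 12 were tested and 4 were listed at 0 in all libraries, among them Clec4f, the lectin that marks mouse Kupffer cells most narrowly, for which 3 fragments would have given 0.072 to 0.078 FPKM. The most abundant were genes of wide use in macrophages. The cathepsin gene Ctsb was at 1885 and 1295 FPKM in PRL-3 cultures and at 1645 and 1677 FPKM in VT cultures, and Slc11a1, the phagosomal metal transporter, was at 299.6 and 239 FPKM in PRL-3 cultures and at 261 and 272 FPKM in VT cultures. Over all libraries Xlr was at 42.5 to 65.2 FPKM, Id3 at 14.7 to 17.1 and Id1 at 6.37 to 7.12. Nr1h3 was at 4.68 to 6.85 FPKM and Clec1b at 0.71 to 1.54, while Spic and Hpgd stayed at 0.24 FPKM or less. The rows of Ctsb, Slc11a1, Xlr, Id1 and Id3 also carried the identifier of an assembled locus. Of 20 further macrophage and monocyte genes 17 were tested, led by Cd14, the co-receptor for lipopolysaccharide, at 884 and 1048 FPKM in PRL-3 cultures, against 1152 and 1206 FPKM in VT cultures. Limma called 0 of these 29 tested genes in either direction. At an unadjusted p under 0.05, where 5.66% of all tested genes were higher and 3.85% lower, there were 2 of the 29, both higher. These were Spn, the sialophorin CD43, at 9.04 and 8.64 FPKM in PRL-3 cultures, against 7.01 and 6.88 FPKM in VT cultures, and Fn1, fibronectin, at 1.72 and 1.18 FPKM in PRL-3 cultures, against 0.35 and 0.30 FPKM in VT cultures. Fn1 reached an FPKM of 1 only in PRL-3 cultures, so it entered the test through the group where it was higher. Fibroblasts make fibronectin too, and the collagen genes, Acta2 and Tagln were higher in the same 2 libraries. The part of fibroblasts in the Fn1 value was not tested.

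Markers of other cell types a liver preparation could hold were looked up in the same way. None of 10 hepatocyte, 8 cholangiocyte and epithelial or 10 lymphocyte markers reached an FPKM of 1 in any library, and Alb, the albumin of hepatocytes, was at 0.03 FPKM or less. The hepatocyte markers summed to 0.30 and 0.28 FPKM in PRL-3 cultures, against 0.03 FPKM in both VT libraries, most of it in PRL-3 cultures from the apolipoprotein gene Apoa2. The Apoa2 values there rested on only about 1.1 and 1.3 fragments, under the limit of 3. No difference between the groups can be read from sums this low. Of 10 dendritic cell markers only the integrin gene Itgax, which macrophages share, was tested, at 5.17 to 6.22 FPKM. Among 10 neutrophil markers S100a8 was at 216 and 271 FPKM in PRL-3 cultures and at 309 and 247 FPKM in VT cultures, and Csf3r, the receptor for granulocyte colony-stimulating factor, was at 8.58 and 5.57 FPKM in PRL-3 cultures and at 6.18 and 5.30 FPKM in VT cultures. The groups overlapped for both genes, and the other 8 were under 1 FPKM, among them S100a9, the usual partner of S100a8, at 0.40 FPKM or less, and Ly6g, Mpo and Elane at 0. The rows of S100a8 and Csf3r also carried the identifier of an assembled locus. Of 10 endothelial markers 2 were tested. Oit3, a gene of sinusoidal endothelium, was at 4.58 and 3.44 FPKM in PRL-3 cultures, against 2.82 and 2.17 FPKM in VT cultures, a log2 difference of 0.52 (standard error 0.19) that limma did not call (adjusted p = 0.51) but whose p was under 0.05 before adjustment. At that level 5.66% of all tested genes were higher. Eng, the co-receptor endoglin, was at 4.40 and 3.68 FPKM in PRL-3 cultures and at 4.31 and 4.0 FPKM in VT cultures. Flt1 was at 0.70 and 0.87 FPKM in PRL-3 cultures, against 0.58 and 0.65 FPKM in VT cultures. Pecam1 was at 0.13 and 0.32 FPKM in PRL-3 cultures, against 0.23 and 0.40 FPKM in VT cultures. Kdr, Stab2, Tek and Bmp2 stayed at 0.09 FPKM or less, with lower means in PRL-3 cultures. Clec4g and Ptprb, which endothelial cells of the liver or of other vessels carry, were listed at 0.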

How the data were processed

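TRIzol RNA was enriched for mRNA with capture beads, fragmented, reverse transcribed from random hexamers and PCR-amplified, per the labels. For each library the authors deposited a table of gene values, read here as FPKM because the values were not whole, the sums differed between libraries (675475 to 725599), and the lowest values fell with transcript length. The submitters' processing notes name RSEM, DESeq2 and mm10, without role. The aligner and annotation release are not given in those sources or in the tables. Positions came from GENCODE M21 (GRCm38), which held all 34 markers, 4 of whose rows (Msr1, Adgre1, Tyrobp and Ptprc) carried an assembled locus as well. FPKM depend on the transcript set used, and strand was not stated.

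Fragment numbers were fitted so that low values of genes with 1 transcript of 600 to 2000 bases became whole (88.5% to 90.5% within 0.2 fragments, against 40% by chance). Limits at 0 are 3 fragments per library.

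Genes with an FPKM of at least 1 in 2 libraries were compared on log2(FPKM + 1) with limma 3.58.1 in R 4.3.3 (mean-variance trend, robust fit, Benjamini-Hochberg over all tested genes), checked on simulated data. Leaving out 1 library leaves a lone library whose spread is taken from the other group. The alternatives were 2 other pseudocounts, 2 filters, 3 scalings, no trend, a replicate block and each library left out. The markers and further lists, and up to 4 genes named per list by mean level, were chosen with earlier results of these data known. Genes named beyond these, such as Spn, Fn1, Ccr2 and the fibroblast genes, the 18 housekeeping genes and the cell type markers at or near 0, were chosen after their values were seen.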

Additional observations from a re-analysis of the deposited data

How the results depend on the processing

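No marker was called under any of the 13 alternatives. Over all genes, where 6 were called, the count was 1 with a pseudocount of 0.1, 1 with a pseudocount of 5, 0 without the filter, 1 with a mean FPKM of 5 or more, 10 without the mean-variance trend, 15 with the replicate block and 0 to 100 with a library left out (100 when PRL-3 replicate 2 was left out, 2 when PRL-3 replicate 1 was). The cause was not tested. The labels give both groups replicates 1 and 2, but nothing ties the numbers to a shared culture, and the deviations of libraries with the same number had a correlation of -0.058 across genes. The block changed no call for a marker. Of the 141 values of single markers under these settings 133 kept their sign and side of the threshold, and 8 changed sign. With a library left out, Fcna ran between -0.17 and 0.22, Stab1 between -0.0595 and 0.19, Adgre1 between -0.12 and 0.27, Cd68 between -0.20 and 0.0062 and Ms4a7 between -0.0252 and 0.12. Under quantile normalisation Ms4a7 was at -0.0237. With a mean FPKM of 5 or more, Cd5l and Ms4a7 were not tested. With 2 libraries per group an exact permutation test of 1 gene cannot give a p under 0.33, and the untested markers rest on 95.8 fragments or fewer per library.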

Other observations

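Relatives of the markers were looked up as well, from a list written with earlier results known. Of the Ms4a genes, which lie together on chromosome 19, Ms4a6d was at 112 and 105 FPKM in PRL-3 cultures, against 99.0 and 94.4 FPKM in VT cultures. Ms4a6b was at 22.5 and 25.5 FPKM in PRL-3 cultures, against 22.2 and 19.0 FPKM in VT cultures, and Ms4a6c was at 13.7 and 18.8 FPKM in PRL-3 cultures, against 11.8 and 15.3 FPKM in VT cultures. These levels stood far above those of Ms4a7 and Ms4a4c, and of Ms4a4b and Ms4a4d, which were at 0.20 FPKM or less. The 3 Ms4a6 genes did not pass the test (limma adjusted p = 0.63 to 0.72, log2 differences 0.16 to 0.25). Tyro3, the third receptor of the family of Mertk and Axl, was at 0 and 0.50 FPKM in PRL-3 cultures, against 0 and 0.18 FPKM in VT cultures.

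Of 12 further genes of alternative activation, 5 were tested and 0 were called by limma. At an unadjusted p under 0.05, where 5.66% of all tested genes were higher and 3.85% lower, there was 1 of the 5. That gene was Clec7a, the beta-glucan receptor dectin-1, at 12.4 and 14.6 FPKM in PRL-3 cultures, against 8.90 and 8.60 FPKM in VT cultures (log2 difference 0.57, standard error 0.13, limma adjusted p = 0.45). Both PRL-3 values exceeded both VT values, as for 24.3% of all tested genes. Clec10a, the close relative of Mgl2, was at 8.02 and 5.97 FPKM in PRL-3 cultures, against 7.19 and 7.51 FPKM in VT cultures, and the groups overlapped.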
